A study of Mus musculus with 16 samples.

Results

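The genes for the incretin, glucagon and fatty acid receptors of the islet were Glp1r, Gipr, Gcgr, Ffar1 and Ffar4. Peaks of 16 ATAC-seq samples that overlapped or touched were merged, and every merged region in the mm10 gene body of one of the 5 genes, in the 3 kb upstream of it or in its 10 kb flanks was kept. This gave 46 regions of the 347712 on chromosomes 1-19, with 14 at Glp1r, 9 at Gipr, 6 at Gcgr, 10 at Ffar1 and 7 at Ffar4. A peak was listed in all 16 samples at 10 of the 46 regions (21.7%) and at 40940 of all regions (11.8%). A further 13 of the 46 had a peak in 1 sample, and 23 had one in 2 to 15 samples.

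Islets of 8 inbred strains of mice, the founders of the Diversity Outbred population, were measured with ATAC-seq, an assay that marks accessible DNA with a transposase before sequencing. The classical strains were 129S1_SvImJ (129), A_J (AJ), C57BL/6J (B6), NOD_ShiLtJ (NOD) and NZO_HlLtJ (NZO), and the wild-derived strains were CAST_EiJ (CAST), PWK_PhJ (PWK) and WSB_EiJ (WSB). A female and a male sample, of 50 islets each, stood for every strain, with no treatment, no engineered allele and no age in the labels used here. The female and the male are the only replicates of a strain, and whether a sample came from 1 animal or from a pool is not given in the sources used here, so the p-values measure the spread between these samples. A whole islet holds beta, alpha, delta and other cells, so fewer cells of a type and less accessibility in each cell cannot be told apart.

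GLP-1 and GIP, the incretins, are gut hormones that raise insulin secretion in response to a meal. Their receptors GLP1R and GIPR, like the glucagon receptor GCGR, belong to the class B family of receptors coupled to Gs, which raises cyclic AMP, and beta cells carry all of them. FFAR1 (GPR40) is a Gq-coupled receptor for long-chain fatty acids on beta cells, and FFAR4 (GPR120) is a receptor for long-chain fatty acids that in mouse islets is known above all from delta cells, where it restrains somatostatin release.

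The DNA before the first annotated start of each gene is shown first, since the 5 starts differed in how often a peak lay over them. Promoters were taken from RefSeq (GRCm38.p6) for the 4 genes with an entry and are given from 5′ to 3′ on the strand of the gene. Searched on both strands were TGTTTAC (FOX motif), CATCTG (E-box), TGACGTCA (cAMP response element), GGGCGG (GC box), TAATTA (homeodomain core) and TGCTGAC (part of a MAF site), and capitals mark each match. The stretches lie at chr17:30901617-30901816 on the plus strand for Glp1r, at chr11:120530477-120530698 on the plus strand for Gcgr, at chr7:30861565-30861720 on the minus strand for Ffar1 and at chr19:38096829-38097070 on the plus strand for Ffar4.
Glp1r promoter: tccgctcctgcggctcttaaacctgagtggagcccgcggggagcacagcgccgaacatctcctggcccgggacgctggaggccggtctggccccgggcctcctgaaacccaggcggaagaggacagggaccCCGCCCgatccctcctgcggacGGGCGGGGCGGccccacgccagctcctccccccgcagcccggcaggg
Gcgr promoter: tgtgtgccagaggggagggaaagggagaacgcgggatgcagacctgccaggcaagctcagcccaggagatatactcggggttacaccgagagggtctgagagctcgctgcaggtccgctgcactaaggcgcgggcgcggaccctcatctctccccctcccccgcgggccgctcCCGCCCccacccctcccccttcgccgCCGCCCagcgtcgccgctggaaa
Ffar1 promoter: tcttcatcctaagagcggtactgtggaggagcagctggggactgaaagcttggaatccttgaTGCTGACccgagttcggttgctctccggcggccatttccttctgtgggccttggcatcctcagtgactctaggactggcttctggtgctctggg
Ffar4 promoter: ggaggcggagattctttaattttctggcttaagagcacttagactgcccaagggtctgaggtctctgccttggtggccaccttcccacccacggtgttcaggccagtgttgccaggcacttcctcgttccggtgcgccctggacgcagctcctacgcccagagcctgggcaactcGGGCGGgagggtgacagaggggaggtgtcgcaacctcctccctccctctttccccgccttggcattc
The Glp1r stretch held 3 GC boxes, of which a pair overlapped, and 24.6% of the promoters in the table held at least 1 in a window of that length. Gcgr held 2 GC boxes and Ffar4 held 1, against 28.8% and 31.6% of promoters. Ffar1 held no GC box and 1 partial MAF site, a motif found in 2.19% of promoters at that length. These matches are letters in a window and not measured binding.

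Beyond the starts, 4 stretches around peak summits are shown. Those at Gcgr and Ffar4 come from regions off any start, with a peak in every sample and a wide range of strain means. The Ffar1 stretch comes from the region over its start. All 4 have their median summit outside annotated exons. Each is centred on the median summit and given on the plus strand of GRCm38.p6, at chr7:30863521-30863721 for Ffar1 region 9, chr11:120539379-120539579 for Gcgr region 3, chr19:38087289-38087489 for Ffar4 region 1 and chr19:38091570-38091770 for Ffar4 region 2. Regions are numbered by coordinate within a gene's window.
Ffar1 region 9: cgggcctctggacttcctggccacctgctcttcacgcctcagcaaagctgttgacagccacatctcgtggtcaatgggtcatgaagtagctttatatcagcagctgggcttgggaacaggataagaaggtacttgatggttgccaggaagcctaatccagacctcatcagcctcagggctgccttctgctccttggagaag
Gcgr region 3: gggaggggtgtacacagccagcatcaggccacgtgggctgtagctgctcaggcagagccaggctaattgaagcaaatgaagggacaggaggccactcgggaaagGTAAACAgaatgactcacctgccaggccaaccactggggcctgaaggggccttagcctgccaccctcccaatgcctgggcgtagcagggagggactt
Ffar4 region 1: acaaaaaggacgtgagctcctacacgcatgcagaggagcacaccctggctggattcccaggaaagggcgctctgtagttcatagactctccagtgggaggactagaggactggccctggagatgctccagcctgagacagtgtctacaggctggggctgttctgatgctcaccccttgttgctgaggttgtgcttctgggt
Ffar4 region 2: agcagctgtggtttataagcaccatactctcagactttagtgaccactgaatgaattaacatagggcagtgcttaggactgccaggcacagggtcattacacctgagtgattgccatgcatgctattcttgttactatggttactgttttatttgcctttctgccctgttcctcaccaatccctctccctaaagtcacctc
A FOX motif in the Gcgr stretch was the only match among these 4, and 8.00% of the 27897 regions with a peak in every sample and no transcription start held one in a window of this length.

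The value used below is the scaled signal, the highest deposited summit signal of a sample in a region divided by the median of that sample over the 40940 regions with a peak in every sample. A value of 1 is therefore the level of a typical shared region, and 0 means that no peak passed the threshold of the authors, not that the region was closed. Sample lists held 77887 to 167051 peaks on chromosomes 1-19, and the lists carry no read totals, so the depth behind each value is not known from them. Of the marker lists, all 8 beta cell genes had a start region with a peak in all 16 samples. No acinar, duct, endothelial or leukocyte marker had such a region, with summed scaled signals between 0 and 1.47 over each list against 13.1 to 17.8 for beta cell markers. Of the delta cell markers, Sst had a peak over its start in 1 sample and Hhex in 10.

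Chromosomes did not share 1 scale in these lists. After each sample was centred on its median over all shared regions, the median over those of chromosome 19, where Ffar4 lies, ran from -0.64 in the B6 male to 0.50 in the NZO male on the log2 scale. Both B6 samples were the lowest there, followed by both 129 samples. Chromosome 11, the site of Gcgr, ran from -0.46 to 0.68 and chromosome 18 from -0.40 to 0.22, whereas the other 16 chromosomes, those of Glp1r, Gipr and Ffar1 among them, stayed between -0.19 and 0.27. Results at Ffar4 and Gcgr are therefore also given with each sample centred within the chromosome, an alternative added after the data were seen.

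**Figure D1:**
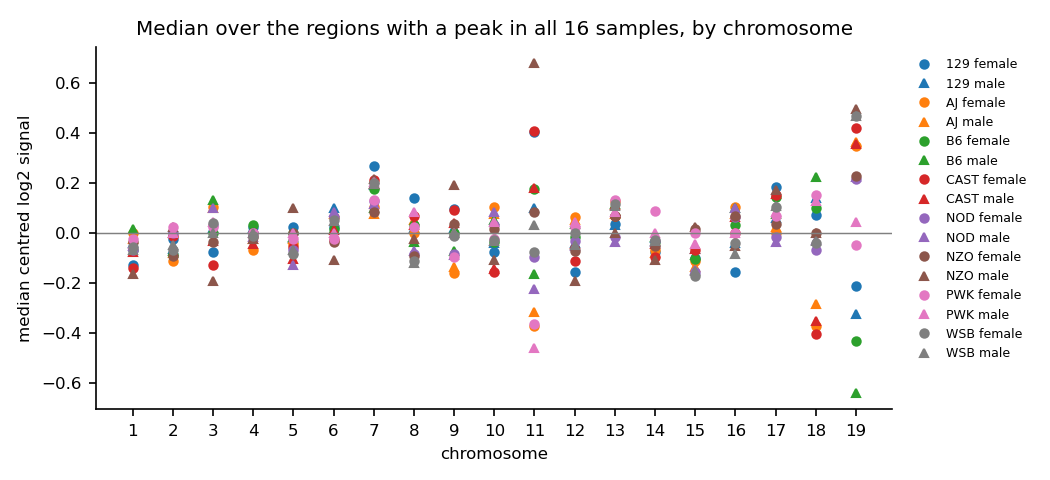
Median centred log2 signal of each sample (y axis) on each chromosome (x axis) over regions where every sample had a peak, with circles for females, triangles for males and a colour per strain. On chromosome 19 the B6 samples lie lowest, down to -0.64, and on most other chromosomes all samples lie close to 0.

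The 5 genes differed in how often a peak lay over their starts. A start was counted as covered by a region that reached into the window from 1000 bases before to 100 after any annotated transcript start. Gipr and Ffar1 had such a region with a peak in all 16 samples, a state shared by 53.8% of protein-coding genes. At Ffar4 the main start region had a peak in 14 samples, at Glp1r in 8 and at Gcgr in 3. A peak that itself reached into the window was listed in all 16 samples at Gipr and Ffar1, in 13 at Ffar4, in 8 at Glp1r and in 2 at Gcgr. The summit of a peak lay inside the window in 16 samples at Gipr, 8 at Glp1r, 7 at Ffar1, 7 at Ffar4 and 1 at Gcgr. By this count Ffar1 did not exceed Glp1r or Ffar4. The highest scaled signal of such a summit was 3.77 at Gipr, 1.19 at Glp1r, 0.964 at Ffar4, 0.516 at Ffar1 and 0.265 at Gcgr.

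**Figure D2:**
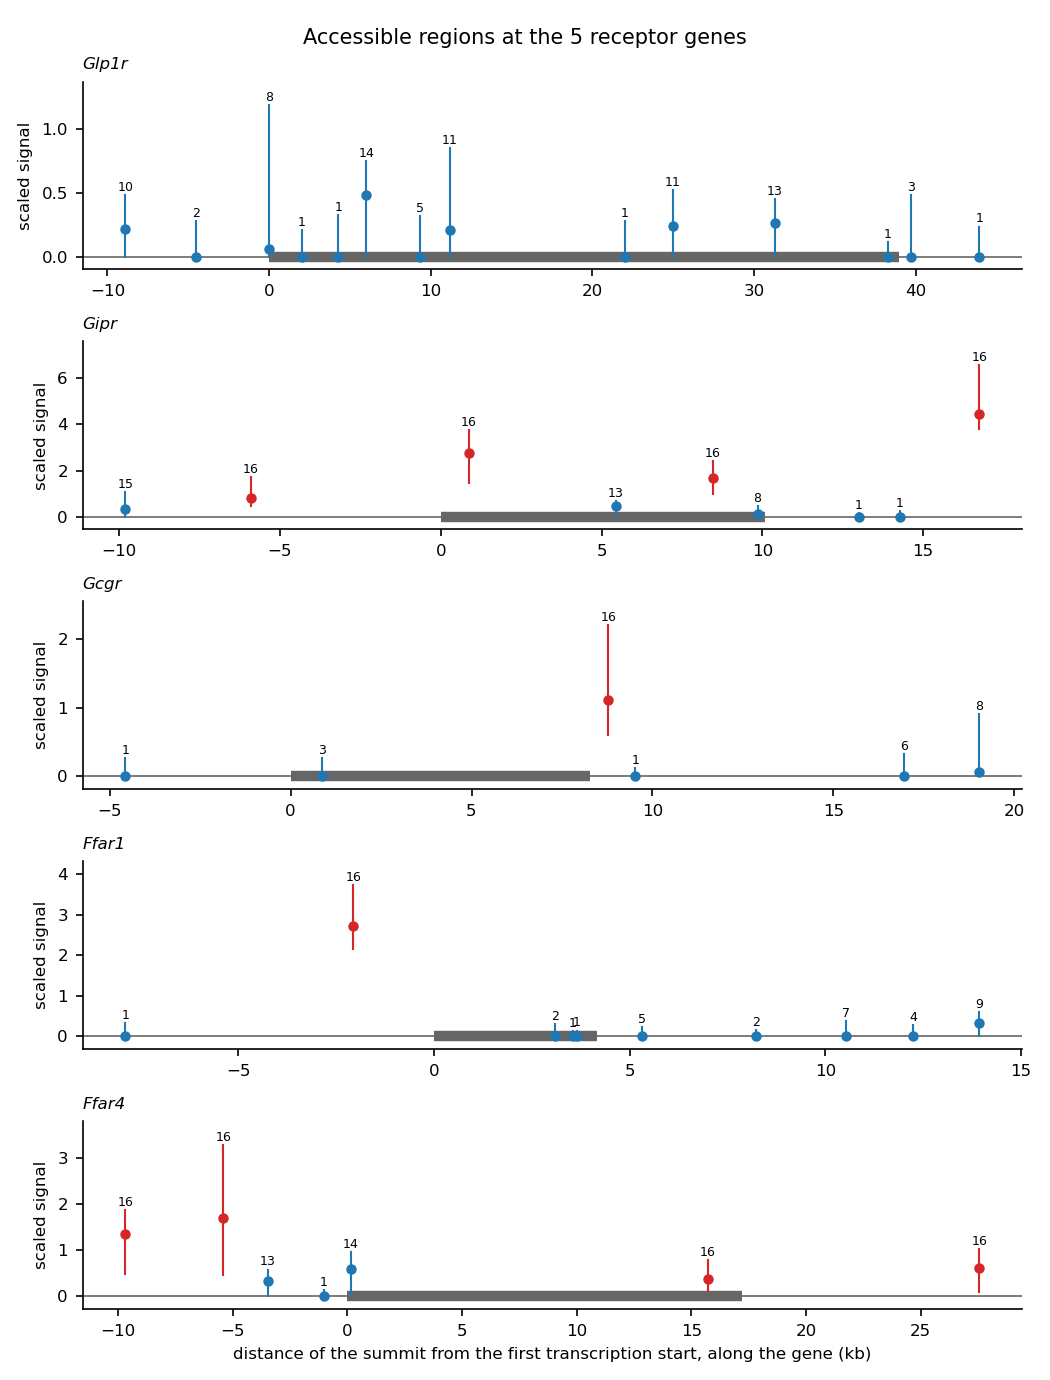
Scaled signal (y axis) of every region against the distance of its median summit from the first transcription start in kb (x axis), 1 panel per gene. Points are medians over 16 samples, lines run from the lowest to the highest sample, numbers count the samples with a peak, red marks a peak in all 16 and the grey bar is the gene. At Ffar1 and Gcgr the one red region lies 2057 bases before the start and 493 bases past the gene end.

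To ask whether strains differed at the regions with a peak in every sample, log2(summit signal + 1) was centred on the median of each sample and tested with limma in a model of strain and sex, with Benjamini-Hochberg adjustment over all 40940 regions. Strain was called at 6 of the 10 receptor regions, beside 35.7% of all regions. These were Gipr regions 5 and 8, Gcgr region 3 and Ffar4 regions 1, 2 and 7. Among the 80 contrasts of 1 strain with the mean of the other 7, limma called 12, of which 6 were higher and 6 lower in that strain, beside 7.34% of such contrasts over all regions. The 3 contrasts in which B6 was called were lower and lay in the Ffar4 window, among them that of region 7 over the start of Rbp4. Lower B6 signal was called at 1.68% of all regions and at 33.8% of the shared regions of chromosome 19, where Ffar4 lies. Of the 3, region 7 alone was still called within the chromosome. No contrast of 129, NOD or NZO was called at the 10 regions, beside 3.09%, 3.02% and 5.19% of all regions called either way in those strains. Within chromosomes, limma called strain at 4 of the 10 regions (32.2% of all regions) and 5 contrasts in place of 12, beside 6.61% of contrasts over all regions.

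Glp1r, whose product is the target of the GLP-1 drugs, spans chr17:30901817-30940791 on the plus strand. None of its 14 regions had a peak in every sample, so none entered the limma fit. Of the 14 regions, 8 had their median summit in an intron and 2 in an exon, and the remaining 4 had it outside the gene. The region over its start, chr17:30901200-30902599, had its median summit 1 base into the first exon.

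At the Glp1r start, the scaled signal was 1.19 in the 129 female and 0.536 in the 129 male, the highest pair. AJ followed with 0.446 and 0.127 in the female and the male, CAST with 0.377 and 0.301, and WSB with 0.377 and 0.250. No peak was listed in either sample of B6, NOD, NZO or PWK. The 8 samples with a peak were therefore both sexes of 4 strains and no sample of the other 4. Of all regions with a peak in exactly 8 samples, 14% were made up of 4 whole strains in this way, and this reading was chosen after the values were seen. Most of these peaks were weak, since 2 of the 8 samples kept one in the stronger 0.5 of their list by deposited significance. The strains with a peak fell in both classes, and wild-derived minus classical strains was -0.0122 in scaled signal, from means of 0.218 and 0.230 (two-sided exact permutation test over the 56 splits of the 8 strains, p = 1, n = 3 and 5 strains, adjusted p = 1 over the 4 start regions so tested, smallest possible p = 0.0179). The difference was 0.104 with the mean signal column, 0.0531 without the 129 female, 0.0197 without the AJ female, 0.0004 without the CAST male and 0.009 without the WSB male, so its sign is not settled.

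Inside the gene, region 6 in an intron, 6010 bases past the start, was the Glp1r region most often listed. It had a peak in 14 samples, with a lowest of 0, a median of 0.486 and a highest of 0.750 in the WSB male. The 2 samples without a peak there were both NOD. Among all regions with a peak in 14 samples, 2.29% lacked the pair of NOD samples, and this too was read after the values were seen. NOD had a peak at 1 of the 14 Glp1r regions in each sex, region 10 in the female and region 11 in the male, and the other 14 samples had from 2 to 11, with 3 in the NZO female, 2 in the NZO male, 2 in the PWK male, 10 in the WSB female and 11 in the 129 female. Over all regions the NOD lists held 89618 and 94449 peaks, the 129 lists 90476 and 94216 and those of the NZO and PWK males 141307 and 145886. The lists also differed in median summit signal, which is not scaled to depth. It was 40 and 36 in the NOD female and male, 28 and 30 in those of 129, and 22 and 10 in the NZO and PWK males. Whether such differences bear on the missing NOD peaks was not tested.

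Region 8, 11185 bases into the gene and also intronic, was highest in PWK, a strain with no listed peak at the start. It reached 0.855 in the PWK female and 0.531 in the PWK male, and the 129 female and male followed as a pair at 0.552 and 0.406. The NOD and NZO samples and the B6 male had no peak there. The order of strains thus differed between the Glp1r start and this intronic region, and that difference was not tested.

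Gipr, the receptor gene for the other incretin, spans chr7:19156061-19166127 on the minus strand and had 4 regions with a peak in every sample. Region 7 over its starts, chr7:19163938-19166531, had summits within 53 bases of one another in all 16 samples, with the median summit in an intron 867 bases past the first start. The lowest scaled signal there was 1.47 in the NZO male, the median 2.76 and the highest 3.77 in the CAST male. Strain means ran from NZO and AJ at the low end to WSB and CAST at the high end, and each of the 7 neighbouring pairs in that order differed by less than the pooled within-strain SD of 0.423. Strain was not called there (limma, adjusted p = 0.131), although it was called without the NZO female (adjusted p = 0.0249) and with no centring (0.0128).

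Upstream of Gipr, strains did differ. Region 8 lay 5913 bases before the start, outside any protein-coding gene, and was higher in CAST and in WSB. The CAST female and male were at 1.70 and 1.29, and the WSB female and male at 1.45 and 1.26. All 12 other samples lay at or below 1.16, the value of the 129 female, with the NZO male lowest at 0.455. The 4 CAST and WSB values did not overlap with those of the other 6 strains, which was so at 0.65% of the regions with a peak in every sample and was read after the values were seen. CAST was 1.87-fold above the mean of the other 7 strains (log2 0.91 ± 0.20 SE, limma adjusted p = 0.00580), beside 6.82% of all regions called higher in CAST. WSB was 1.69-fold above its own other 7 (log2 0.76 ± 0.20 SE, limma adjusted p = 0.0415), beside 2.67% of regions called higher in WSB. The CAST call was lost without the CAST female (adjusted p = 0.121) or male (0.100) and with the mean signal column (0.0524), and the WSB call was lost in 8 of 16 runs that left out 1 library and within chromosomes (adjusted p = 0.0545).

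Region 5, over a Gipr exon 8461 bases past the start, was lowest in AJ, at 0.969 in the female and 1.04 in the male, and highest in the 129 female at 2.40. Strain was called there (limma adjusted p = 0.0400), a call lost in 10 of 16 runs without 1 library, among them those without either AJ sample. Its AJ contrast was -0.75 ± 0.21 SE on the log2 scale (limma adjusted p = 0.0467), beside 3.14% of regions called lower in AJ, and it was lost in 11 of 16 runs without 1 library. Within the chromosome both calls missed the threshold (limma adjusted p = 0.0531 for strain and 0.0583 for the AJ contrast). The strongest Gipr region, region 1, is the promoter of its neighbours Qpctl and Snrpd2, with a lowest value of 3.81 (PWK male) and a highest of 6.59 (129 female), and strain was not called there (limma adjusted p = 0.323). The region over the start of Eml2 on the other side, Gipr region 9, had a peak in 15 samples and was highest in WSB, at 1.07 and 1.05, against 0.603 or less elsewhere, while both WSB samples were highest at 3.47% of all regions with a peak in 15 samples.

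**Figure D3:**
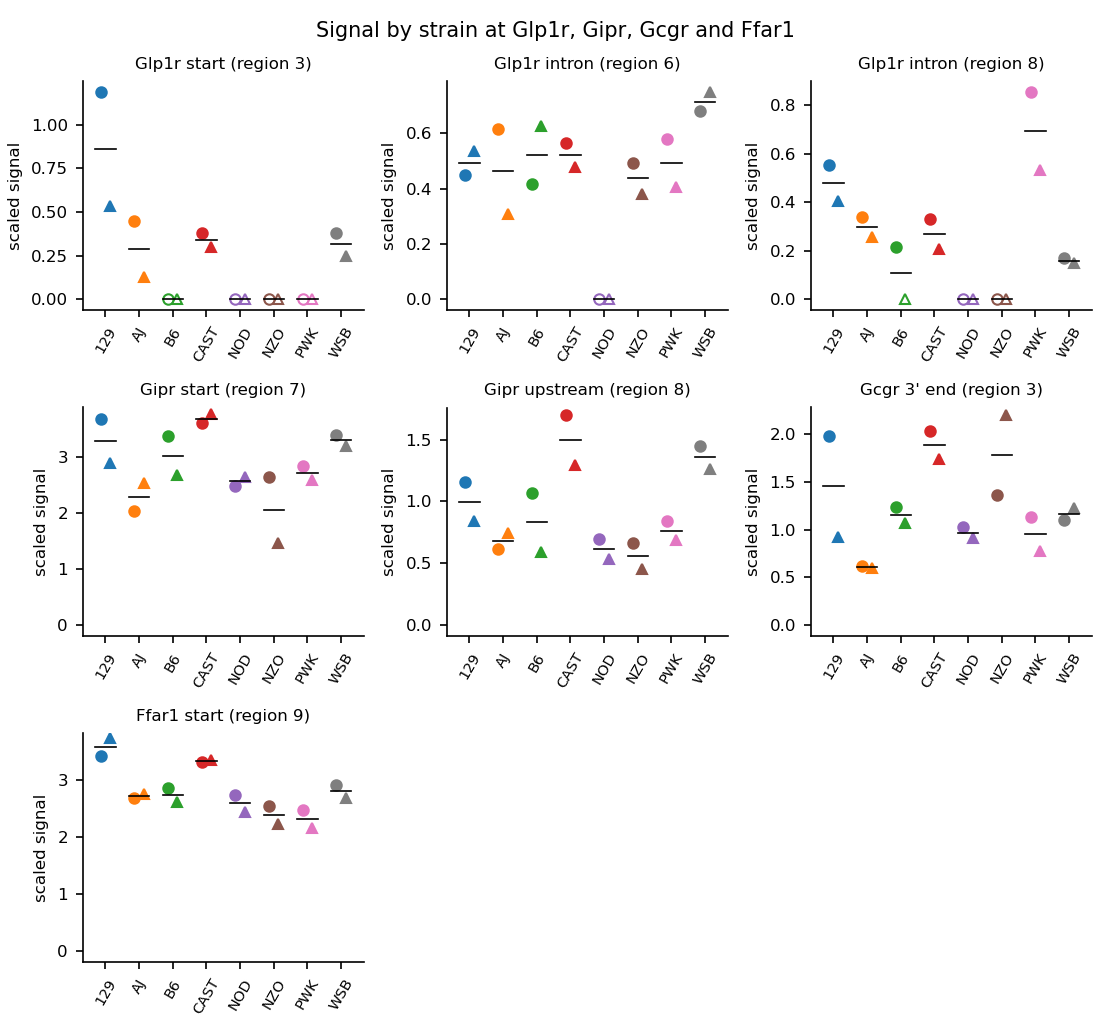
Scaled signal (y axis) by strain (x axis) at the named regions of Glp1r, Gipr, Gcgr and Ffar1. Circles are females, triangles males, open symbols samples with no listed peak and bars strain means. The Glp1r start is listed in 129, AJ, CAST and WSB, and Gipr region 8 is highest in CAST and WSB.

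Gcgr, the glucagon receptor gene, spans chr11:120530699-120538986 on the plus strand. Its start region, which also covers a start of the neighbour Gm11789, had a peak in the CAST female at 0.264, the CAST male at 0.265 and the WSB female at 0.104, and in no other sample, so the 3 samples were of wild-derived strains. The median summit there lay in an intron 881 bases past the first start. The wild-derived mean was 0.105 and the classical mean 0 (two-sided exact permutation test over 56 splits, p = 0.107, adjusted p = 0.429 over 4 regions, n = 3 and 5 strains), and with values above 0 in 2 strains alone this p could not have been lower. The region that was open in every sample was region 3 at the other end of the gene, chr11:120538658-120540027, with a median summit 493 bases past the annotated gene end. It ranged from 0.600 in the AJ male through a median of 1.12 to 2.20 in the NZO male. Both AJ samples were the lowest, as at 3.55% of all shared regions, at 0.615 and 0.600, and the CAST samples were at 2.04 and 1.74.

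By limma, AJ fell below the other 7 strains at Gcgr region 3 by 1.05 ± 0.25 SE on the log2 scale (adjusted p = 0.0294). CAST was higher by 0.79 ± 0.25 SE (adjusted p = 0.0395). Chromosome 11 as a whole moved with them, since the AJ medians there were -0.37 and -0.32 and the CAST medians 0.41 and 0.18. Within the chromosome, the AJ contrast was -0.66 (adjusted p = 0.0635), the CAST contrast 0.46 (adjusted p = 0.122) and the strain test missed the threshold (limma adjusted p = 0.151). The AJ call was also lost in 7, the CAST call in 9 and the strain call in 6 of 16 runs without 1 library.

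Ffar1, on chr7:30857390-30861564 on the minus strand, had 1 region with a peak in all samples among its 10. This region 9, chr7:30859200-30864049, covers the start, but its highest summit lay 2057 bases upstream of it, and the summits of the 16 samples fell within 48 bases of one another. A summit inside the start window itself was listed in 7 samples and reached at most 0.516. The scaled signal at region 9 was lowest in the PWK male at 2.16, had a median of 2.72 and was highest in the 129 male at 3.74. Strain was not called (limma, adjusted p = 0.179), and the other 9 Ffar1 regions had a peak in 1 to 9 samples. With no centring, strain was called there (adjusted p = 0.0175). The 129 samples, at 3.43 and 3.74, lay above all 14 others, of which the CAST male was highest at 3.35, as both 129 samples did at 2.08% of all shared regions, and the 129 contrast was not called (limma log2 0.41, adjusted p = 0.162).

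Ffar4, on chr19:38097071-38114263 on the plus strand, was where B6 stood apart. Of its 7 regions, 4 had both B6 samples below all 14 others, namely regions 1, 2, 5 and 7. None of the other 39 receptor regions did, but most of them could not. Outside Ffar4, every region that lacked a peak in some sample lacked one in a sample other than B6. B6 could not lie below such a sample. The contrast with Ffar4 therefore rests on Gipr regions 1, 5, 7 and 8, Gcgr region 3 and Ffar1 region 9. Among the regions with a peak in every sample, 3 receptor regions and 1.61% of all regions had both B6 samples lowest. On chromosome 19 the share was 22.3%. With signal scaled within each chromosome it was 1.21% of all regions, and regions 1, 2 and 7 of Ffar4 no longer had both B6 samples lowest. Region 5, with no listed peak in B6, was not part of that check.

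**Figure D4:**
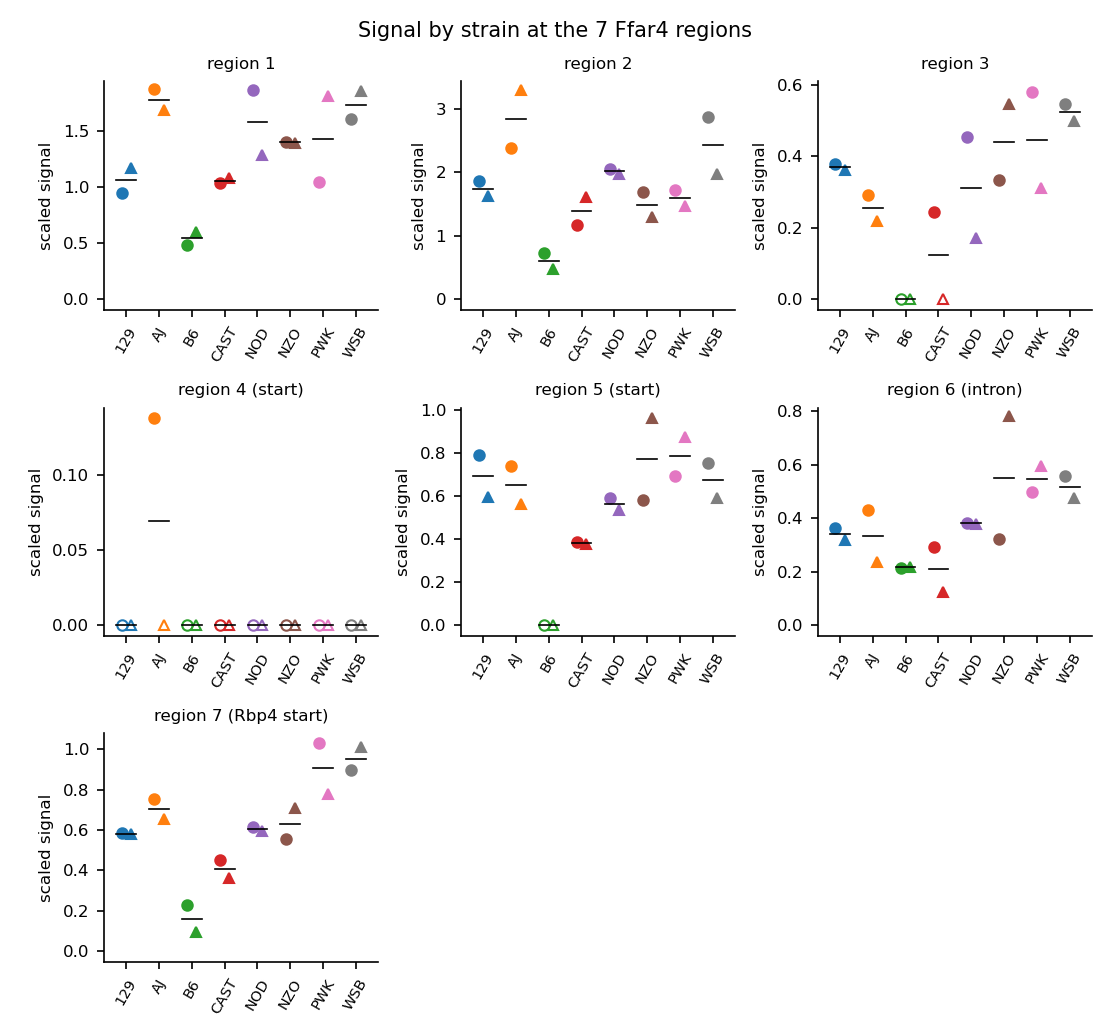
Scaled signal (y axis) by strain (x axis) at the 7 Ffar4 regions, drawn as for the other genes, with open symbols for samples with no listed peak. B6 lies lowest in regions 1, 2, 5 and 7 and has no peak in regions 3, 4 and 5. The CAST male also has no peak in region 3, and in region 4 the AJ female alone has one.

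Region 5 covers the Ffar4 start, chr19:38096893-38098696, with its median summit 166 bases into the first exon. No peak was listed there in either B6 sample. The lowest of the 14 others was the CAST male at 0.375, and the highest was the NZO male at 0.964. Of all regions with a peak in 14 samples, 0.939% lacked exactly the B6 pair, and this was chosen after the values were seen. That share covers all chromosomes and was not counted for chromosome 19 alone, where both B6 samples were lowest at 22.3% of shared regions. A summit inside the start window itself was listed in 7 samples, and the peak of the NOD male did not reach that window. Wild-derived strains averaged 0.613 and classical strains 0.536 there (two-sided exact permutation test over 56 splits, p = 0.786, adjusted p = 1 over 4 regions, n = 3 and 5 strains). A second region within 1000 bases of the start, region 4, had a peak in the AJ female alone, at 0.138, and wild-derived minus classical strains was -0.0138 there (exact permutation test, p = 1, adjusted p = 1). With a value above 0 in 1 strain alone, this exact test could not have given a p below 0.375, so it decides nothing.

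The strongest Ffar4 region was region 2, 5401 bases upstream of the start at chr19:38091449-38092657, the second intergenic stretch printed above. Here the B6 female was at 0.726 and the B6 male at 0.470. The other samples ran from 1.17 in the CAST female to 3.29 in the AJ male. Before the chromosome was taken into account, B6 was 3.13-fold below the mean of the other 7 strains (log2 -1.64 ± 0.22 SE, limma adjusted p = 0.00269). Within chromosome 19 the difference was -0.89 ± 0.23 SE (adjusted p = 0.0715), and strain was still called (limma adjusted p = 0.0230). The B6 call was also lost without the B6 male (log2 -1.37, adjusted p = 0.124) and with no centring (log2 -1.45, adjusted p = 0.0995). AJ was highest, 1.88-fold above its other 7 (log2 0.91 ± 0.22 SE, limma adjusted p = 0.0318), beside 3.67% of regions called higher in AJ, and within the chromosome this too missed the threshold (limma adjusted p = 0.0961). The AJ call was lost in 6 of 16 runs without 1 library, with a log2 difference of 0.56 without the AJ male (adjusted p = 0.414) and 1.25 without the AJ female (0.0918).

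Region 1, 9682 bases upstream of the start, had the B6 female at 0.488 and the B6 male at 0.602, and the 14 others between 0.948 and 1.88. The B6 contrast was -1.35 ± 0.21 SE on the log2 scale (limma adjusted p = 0.00599). It was -0.59 ± 0.23 SE within the chromosome (adjusted p = 0.219), and the call was lost with no centring (log2 -1.15) and without the B6 female (adjusted p = 0.0874) or the B6 male (0.110).

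Region 6, in an intron 15706 bases past the start, was low in CAST, at 0.292 and 0.125, with a median over all samples of 0.370 and a highest of 0.782 in the NZO male. Strain was not called there (limma adjusted p = 0.0623), although it was within the chromosome (adjusted p = 0.0425). The CAST contrast was -0.99 ± 0.32 SE (limma adjusted p = 0.0425), beside 13.8% of regions called lower in CAST, and -1.29 within the chromosome (adjusted p = 0.00739). Without the CAST male it was -0.38 (limma adjusted p = 0.638), without the CAST female -1.61 (0.0378), and the call was lost in 12 of 16 runs without 1 library. The B6 samples, at 0.214 and 0.217, did not pass the test here (log2 -0.79 ± 0.32 SE, adjusted p = 0.221), and within the chromosome their contrast was -0.03.

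The largest B6 difference was at region 7, downstream of Ffar4 and over the start of Rbp4, the gene for retinol-binding protein 4 and a delta cell marker in mouse islets. This region, chr19:38123949-38125482, had the B6 female at 0.226 and the B6 male at 0.0964. The lowest of the other samples was the CAST male at 0.360, and the highest was the PWK female at 1.03. B6 was 4.18-fold below the mean of the other 7 strains (log2 -2.06 ± 0.23 SE, limma adjusted p = 0.000804). No region of the 975 shared on chromosome 19 had a larger B6 deficit, and the median of that contrast over the chromosome was -0.74. Within the chromosome the difference was -1.31 ± 0.21 SE and was called (adjusted p = 0.00808), beside 0.664% of all regions called lower in B6 in that fit. The call held in all 30 alternatives that could be fitted, with a log2 difference between -2.60 and -1.53 when 1 library was left out and of -1.11 with the mean signal column. The fit on the stronger 0.5 of each peak list could not include this region, since 8 of the 16 samples kept a peak there. Whether the call holds without weak peaks was therefore not tested.

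PWK and WSB were higher at the same region, by 0.80 ± 0.23 and 0.89 ± 0.23 SE on the log2 scale (limma adjusted p = 0.0428 and 0.0413), beside 5.32% of regions called higher in PWK and 2.67% in WSB. Without B6 in the fit these contrasts were 0.52 (adjusted p = 0.111) and 0.61 (adjusted p = 0.0806). The calls were lost in 11 and 10 of 16 runs without 1 library, and within the chromosome PWK was still called (log2 0.94, adjusted p = 0.0115) and WSB was not (adjusted p = 0.198), while CAST was called lower (log2 -0.80, adjusted p = 0.0163).

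**Figure D5:**
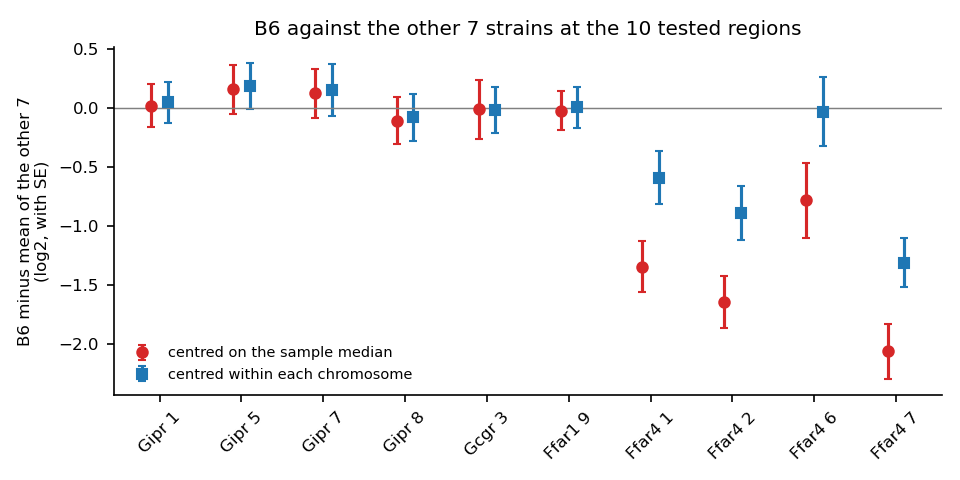
Difference between B6 and the mean of the other 7 strains in log2 signal (y axis) at the 10 regions with a peak in every sample (x axis), with standard errors from limma. Red points are centred on the sample median and blue squares within each chromosome. The Gipr, Gcgr and Ffar1 regions lie near 0, and Ffar4 region 7 is at -2.06 and -1.31.

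Around Ffar4, low B6 signal was shared with the rest of the chromosome. All 20 shared regions within 150 kb of the gene had a B6 contrast below 0, from -0.29 to -2.06, as did 97.6% of the 975 shared regions of chromosome 19. Lower B6 signal was called by limma at 10 of the 20 and at 33.8% of those 975. Within the chromosome, 13 of the 20 contrasts were below 0 and 1, that of Ffar4 region 7, was called. At the start of Pde6c, 16937 bases past the gene end, the contrast was -1.24 ± 0.20 SE (limma adjusted p = 0.00662) and -0.49 within the chromosome (adjusted p = 0.285). Among the delta cell markers, Hhex is also on chromosome 19 and was at 0 and 0.179 in the B6 samples, within the range of the others, 0 to 1.26. Sst, on chromosome 16, had a peak over its start in 1 sample, at 0.0968, and was at 0 in the 15 others. The third delta cell marker, Rbp4, is read at region 7 itself and so gives no separate reading, and the part of delta cells in the result was not tested. The beta cell marker sums, 13.2 and 15.6 in B6, lay within the range of the other samples, 13.1 to 17.8.

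No difference between the classes of strains or the sexes passed these tests. Wild-derived against classical strains gave 0 calls among the 10 regions by limma on strain means (0.0342% of all regions were called), with 1 of the 10 and 12.1% of all regions at an unadjusted p under 0.05. That region was Gipr region 8, higher in wild-derived strains by 0.69 ± 0.28 SE on the log2 scale (limma adjusted p = 0.346). Sex gave 0 calls by limma among the 10 regions and 0% of all regions, with 1 of the 10 and 3.96% of all at an unadjusted p under 0.05. The region was again Gipr region 8, where females were higher by 0.35 ± 0.13 SE (limma adjusted p = 0.999).

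Downstream of the receptors, the genes that carry their signals were read at their promoters. Of 47 genes in the lists of G proteins and cyclic AMP or calcium signalling, of other islet receptors and of ligands and their processing, 32 had a start region with a peak in all samples. Where a gene had several such regions, as Gnas did, the one with the highest median signal was tested. Strain was called by limma at 4 of the 32 (12.5%), beside 25.4% of all shared regions at a start. The 4 were Gnas, the gene of Gs (adjusted p = 0.0252), Gnaq, the gene of Gq (0.00660), Gnao1, the gene of Go (0.0265), and Pcsk1, the gene of a prohormone convertase (0.0119). Of these, Gnaq was called lower in B6, by 0.95 ± 0.17 SE on the log2 scale (limma adjusted p = 0.0111), with B6 samples at 1.88 and 2.15 and the others from 2.81 to 5.78. Gnaq also lies on chromosome 19, and within that chromosome its B6 contrast was -0.20 (adjusted p = 0.612). Its strain call was lost there too (limma adjusted p = 0.162), while Gnas, Gnao1 and Pcsk1 were still called within their chromosomes (limma adjusted p = 0.0333, 0.0269 and 0.0151). None of the 9 tested promoters among other receptors was called, and 3 of those 19 genes, Glp2r, Ghrhr and Gpr142, had no region over a start. Gcg, which encodes both glucagon and GLP-1, was at 1.85 to 5.90 with a median of 4.07, and strain was not called (limma adjusted p = 0.188). Gip had no region over its start.

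For likeness, the centred log2 signals over the 16 samples were correlated with those of 11409 shared regions at protein-coding starts. Among the starts most like Gcgr region 3 were those of Trafd1 (Pearson r = 0.954) and Ubald2 (0.947), the latter on the same chromosome. Gipr region 7 was most like Prkab2 (0.863), Cpeb1 (0.847) and Ffar2 (0.829), Gipr region 5 like Cfap57 and Ebna1bp2 (0.934), and Ffar1 region 9 like Fbxw7 (0.884), Relt (0.854) and Hist1h3i (0.839). Ffar4 region 2 was most like the start of its neighbour Pde6c (0.853), Asah2 (0.846) and Tpbg (0.831), and Ffar4 region 6 like Lsp1 (0.829). These points share the libraries and, for some, the chromosome, and they describe likeness in these samples alone.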

How the data were processed

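Chromatin accessibility was profiled in 16 islet samples, 1 female and 1 male from each of 8 strains, grouped by the labels into strains and by the text of the study into classical and wild-derived strains. Per the methods of the study and the submitters' processing notes, the authors trimmed reads with cutadapt 2.0, aligned them to mm10, the B6 reference, with Bowtie2 2.3.4.1, filtered them with SAMtools and Picard 2.9.2, and called peaks in each sample with MOSAiCS, with the false discovery rate held at 0.05. Whether read ends were moved for the transposase is not stated. The deposited lists hold a summit signal and a mean signal per peak, neither scaled to depth, and a deposited significance on a −log10 scale. The deposited strain lists, with an irreproducible discovery rate (IDR) on a −log10 scale, served as an alternative.

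Peaks were merged on chromosomes 1-19 and annotated with GENCODE M21. A region held the highest summit of each sample. Strain, strain against the other 7, sex and class were tested with limma 3.58.1 (R 4.3.3) on log2(summit signal + 1), centred on the sample median, at regions with a peak in every sample, with sex or strain as covariate and class on the 8 strain means, and calls needed a Benjamini-Hochberg adjusted p under 0.05. Adding 1 understates differences at low signal. The script was tested on simulated data. Start regions outside that fit were compared by exact permutation of strains. The members and lists were chosen with earlier results of these data known. The text describes regions over a member's start, those in its body or 3 kb upstream with a peak in all 16 samples and the region of each window with the widest range of strain means, and names up to 3 starts most alike, while further regions named, Glp1r regions 6 and 8, Gipr regions 8 and 9 and Ffar4 regions 1, 3 and 7, were chosen after their values were seen. Alternatives were the mean signal, no centring, a pseudocount of 10, a wider fit of regions with a peak in at least 12 samples, the stronger 0.5 of each list by deposited significance, GC bins, no sex term, each sample or strain left out and, added later, centring within chromosomes. The alpha cell marker list and 1 start most alike are not reported here.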

Additional observations from a re-analysis of the deposited data

How the results depend on the processing

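The count of 6 receptor regions called for strain was 3 with the stronger 0.5 of the peaks, where 6 of the 10 could be tested, and 3 without CAST. It ran from 4 to 8 when 1 library was left out, 8 being without the NZO female, 7 without the NZO male and 4 without either AJ or NOD library or the CAST male. The 12 called contrasts became 4 with the mean signal column, 19 with no centring, 5 with the stronger 0.5 of the peaks, 5 within chromosomes, 7 without B6, 4 without CAST and 7 without NOD, and ran from 4 to 18 without 1 library, 4 being without either CAST or NOD library and 18 without the NZO female. Class and sex stayed at 0 calls in all alternatives run. The 4 called pathway promoters became 20 with no centring and ran from 2 to 14 without 1 library, 14 being without the NZO female and 2 without either CAST library or the NOD female. With no centring the PWK contrast at Ffar4 region 7 was -0.025. The class difference at the Glp1r start ran from -0.0776 to 0.0531 without 1 library and was 0.104 with the mean signal column. Of the 46 regions, 29 were left with the stronger 0.5 of the peaks, 24 in the gene body and 3 kb upstream alone and 25 in a strain list at an IDR of 0.05. Of the 10 with a peak in all samples, 6 were left with the stronger 0.5, 5 in the gene body and 3 kb upstream and 0 where peaks had to cover at least 0.5 of a merged region in every sample. The cause of these shifts was not tested, apart from the fewer regions or samples in some. The peak lists carry no read totals, so no limit from depth was set. Replicate numbers stand for sex, which is a term of the model, so they gave no further pairing. Sex was tested with strain in the model, which compares the female and the male of each strain.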
